A study of Brassica napus with 23 samples.

Results

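The genes described here were selected on their counts: each had 0 counts in every one of 23 RNA-seq libraries of Brassica napus (oilseed rape), and is called silent in that sense alone. They numbered 13152 of the 101040 genes in the deposited count table, which is 13.0% of all genes. The count values chose them, so their number and their zeros are a description with no test, and their length, chromosome, neighbours and position were not used to choose them. Because every gene of the table was placed in or out of the set, the shares below are complete counts over genes, which are not replicates, and carry no test.

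The libraries were made from total RNA of shoots and roots of plants treated either with LB broth (control) or with Pseudomonas chlororaphis PA23, a bacterial biocontrol strain given as 15 mL of culture, and harvested 24 h or 7 d later. Shoots gave 3 control and 3 PA23 libraries at each harvest. Roots gave 3 PA23 libraries at each harvest, 3 control libraries at 7 d and 2 at 24 h. The labels give 14 days of growth with treatment on day 7 for all samples, values that do not match a harvest at 24 h. The sources used here do not name the cultivar, and no flower, pollen, silique or seed library is among the 23. The labels leave unsaid whether replicate libraries come from different plants; the p-values below thus reflect library-to-library spread, part of which may be technical. The table's gene IDs are not paired with names, so the tissue labels could not be checked against named marker genes.

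Brassica napus is an allotetraploid that carries an A subgenome, derived from an ancestor of Brassica rapa, and a C subgenome, derived from an ancestor of Brassica oleracea. Most genes therefore exist as A and C copies. The C subgenome is the larger of the pair and richer in transposable elements, and genes are spaced more widely along it. In plant genomes, genes without transcripts in leaves and roots commonly include genes used in other organs or under stress, gene models that lie in transposable elements, and copies that have decayed into pseudogenes. In the table, chromosome names that end in _random mark sequence that is assigned to a chromosome or subgenome but not ordered along it; Ann, Cnn and Unn are assigned to the A subgenome, to the C subgenome and to neither.

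Depth set how low a level these zeros exclude. Library totals ranged from 0.622 M to 721 M counts (M, mega; median 45.8 M), with 6 libraries under 2 M and the other 17 at 16.8 M or more. A count of 0 allows up to about 3 counts at a confidence level of 95%, for each gene taken singly. Over the 1616 M counts of all libraries together, this limit of 3 counts came to 0.00186 counts per mega (CPM). A limit over several libraries applies to their mean level weighted by depth. The limit was 0.00604 CPM over the 12 shoot libraries and 0.00268 CPM over the 11 root libraries. That order rested on 1 root library, the one of 721 M counts. Without it the root limit was 0.00754 CPM, above that of shoots. Within a single group it ran from 0.00365 CPM in PA23 roots at 24 h, the group with the deepest library, to 0.0483 CPM in PA23 roots at 7 d. These limits cover counting error only and take each count as a separate fragment. Low counts were mostly even, the pattern of a count that takes each mate separately: 18.9% to 33.6% of counts from 1 to 10 were odd in 22 libraries, and 57.6% in root PA23 7 d replicate 1. Where both mates were counted, the printed limits are too low, by up to 2 times. The sources used here do not say how reads that match several near-identical genes were assigned, and the part of this in the zeros was not tested.

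In any 1 library many more genes stood at 0 than in all 23 together. The number per library ranged from 18259 genes in root PA23 24 h replicate 1, the library of 721 M counts, to 61319 in shoot PA23 7 d replicate 2, of 0.883 M. The silent genes made up 72.0% of the genes at 0 in the former and 21.4% in the latter. A count in every library was found for 24569 genes (24.3%), a count in exactly 1 library for 4770 (4.72%) and in exactly 2 for 2866 (2.84%).

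**Figure D1:**
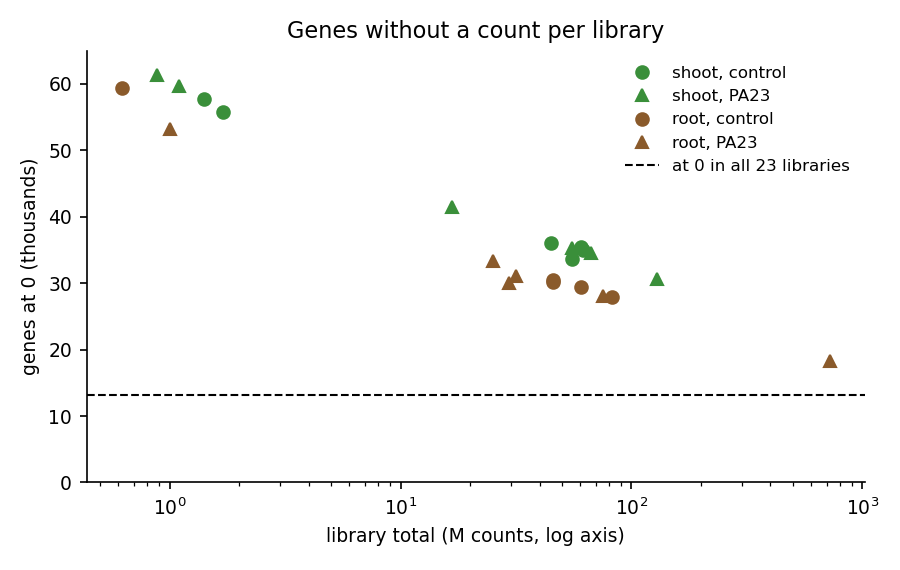
Number of genes with 0 counts in each library (y axis, in units of 1000 genes) against the library total (x axis, M counts, log scale), by tissue (colour) and treatment (symbol). The deepest library lies lowest at 18259 genes, the highest point is at 61319, and the dashed line marks the 13152 genes at 0 in all 23.

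The set depended on 1 library more than on any other. Root PA23 24 h replicate 1 held 44.6% of all counts and was the sole source of counts for 2441 genes, so 15593 genes would be silent without it. Leaving out any other library gave 13152 to 13489 silent genes. Of the 2441 genes, 1328 (54.4%) had 1 or 2 counts there. Among genes at 0 in the other 22 libraries, this library found 29.7% of those of 4000 bp or more and 11.8% of those under 300 bp. It found 17.2% of the A genes and 14.9% of the C genes among them. The 6 libraries under 2 M counts hardly mattered: without them the set held 13164 genes.

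Just outside the rule lay 1255 genes with 1 count in all and 2236 with 2 counts. Of the latter, 2021 (90.4%) had both counts in the same library. The deepest library held 40.1% of the counts of these 3491 genes, close to its 44.6% share of all counts. Their median length was 846 bp, between 636 bp for the silent genes and 1038 bp for the 5452 genes with 3 to 10 counts. The median rose with each further class of counts, to 2339 bp for the 29666 genes with over 10000 counts.

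A zero in shoots was often not a zero in roots. Over the 12 shoot libraries 23103 genes (22.9%) had no count, and over the 11 root libraries 15786 (15.6%). The silent genes were 56.9% of the former and 83.3% of the latter. Of the 77937 genes with a count in shoots, 2634 (3.38%) had none in roots, against 56.9% of the genes without a count in shoots. Counts were found in roots alone for 9951 genes and in shoots alone for 2634. Root depth was 1119 M and shoot depth 496 M counts. With the deepest library left out, root depth was 398 M, 19941 genes had no count in roots, 7510 had counts in roots alone and 4348 in shoots alone.

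Between treatments, the number of genes at 0 moved with depth. The 11 control libraries (461 M counts) left 18499 genes at 0 and the 12 PA23 libraries (1155 M) left 14482. Without the deepest library the 11 remaining PA23 libraries (434 M) left 18351. Counts appeared in PA23 libraries alone for 5347 genes and in control libraries alone for 1330, but for 2906 and 2758 genes with the deepest library left out.

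To compare conditions over libraries, each library was thinned to the smallest total, 0.622 M counts, and the expected number of genes at 0 was taken; the silent genes add 13152 to every library. Shoot libraries had 57360, 58675 and 62513 genes at 0 (lowest, median and highest of 12) and root libraries 51822, 52427 and 59390 (of 11). Shoots had more genes at 0, with means of 59394 ± 1771 (SD, n = 12) against 53206 ± 2247 (SD, n = 11), a difference of 6187 genes (two-sided permutation test with 100000 resamples, p = 2.00e-05, the smallest they can give; adjusted p = 6.00e-05 over 3 comparisons). The ranges overlapped through root control 7 d replicate 3 (59390). Libraries under 2 M counts stood higher than the others even after thinning, at 60717 to 62513 in shoots and 55161 to 59390 in roots. Among libraries of 2 M counts or more the ranges did not overlap, with 57360 to 58733 in 8 shoot and 51822 to 52928 in 9 root libraries. A number in the library names of the labels, read here as the sequencing run, is shared by the 12 shoot libraries and 4 root libraries, and among these the difference was 5127 genes (exact permutation test, two-sided, p = 0.00989). Thinning draws single counts, so where both mates were counted it splits them in the deeper libraries and leaves the smallest library whole. With counts halved before thinning, the SDs fell to 543 in shoots and 490 in roots, with a difference of 5996 genes. The part of split mates in the height of the libraries under 2 M counts was not tested.

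No difference between treatments was detected in the same measure by the test that takes libraries as unpaired. PA23 and control shoots had 59800 ± 1897 and 58988 ± 1705 genes at 0 (SD, n = 6 each; difference 812, exact permutation test, two-sided, p = 0.468, adjusted p = 0.532). With shoot libraries paired by replicate number, the same difference passed the threshold of 0.05 (exact permutation test over 6 pairs, p = 0.0312, adjusted p = 0.0469). This p is the smallest that 6 pairs can give. PA23 was the higher in 6 of 6 pairs, which gives that p whatever the size of the differences. Whether the numbers pair the libraries is not settled, so the call in shoots depends on pairing. PA23 roots had 52730 ± 1235 (SD, n = 6) and control roots 53778 ± 3157 (SD, n = 5), a difference of -1048 (exact permutation test, two-sided, p = 0.532, adjusted p = 0.532). The direction in roots was not stable: without control 7 d replicate 3, the smallest library, which also raises the common depth, the difference was 564 genes, and among libraries of 2 M counts or more it was -317.

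Silent genes were short. Their median length, from start to end with any introns inside, was 636 bp (quartiles 335 and 1224 bp), against 1704 bp (993 and 2691 bp) for the 87888 genes with a count and 1560 bp for all genes. At equal transcript level a longer gene collects more counts, so length bears on a zero in any count table. Of the 6639 genes under 300 bp, 42.2% were silent. The share fell step by step with length, to 31.6% at 300 to under 600 bp, 18.7% at 600 to under 1000 bp, 9.23% at 1000 to under 2000 bp, 4.01% at 2000 to under 4000 bp and 2.61% of the 9258 genes of 4000 bp or more. Genes under 600 bp gave 6277 of the silent genes. Below 100 bp, 373 of 709 genes (52.6%) were silent, and at the shortest length in the table, 33 bp, 11 of 14.

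**Figure D2:**
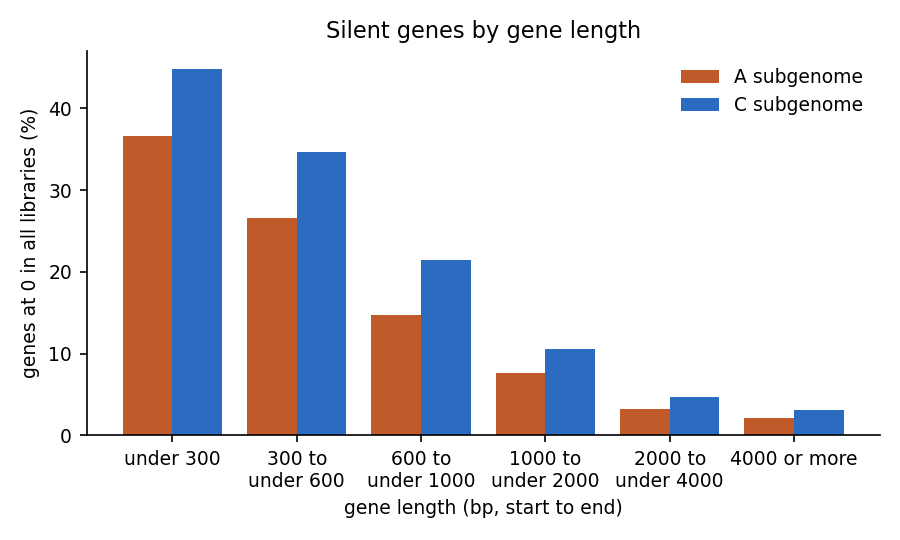
Share of genes at 0 in all libraries (y axis, %) by gene length (x axis, bp), for the A (orange) and C (blue) subgenomes. The share falls from 36.6% to 2.07% in A and from 44.8% to 3.08% in C, and the C bar is the higher in each of the 6 length classes.

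Long silent genes were few. Of 5246 genes over 5000 bp 119 were silent, and of 451 over 10000 bp 8 were. The longest was BnaC02g05400D (C02, 2796092 to 2822663, plus strand), with 26572 bp; the gene before it, BnaC02g05390D, was silent too and the gene after it, BnaC02g05410D, had 4 counts in all. BnaC09g50370D (C09, 48228197 to 48242767, minus strand, 14571 bp) had 24 other genes within 50 kb, and the genes on either side had 13623 and 569 counts. BnaC05g21810D (C05, 15559474 to 15572284, plus strand; 12811 bp) had 4 other genes within 50 kb and neighbours with 42170 and 104 counts. BnaA03g60570D (A03_random, 5338382 to 5350847; 12466 bp) and BnaC03g72890D (C03_random, 1095024 to 1106368; 11345 bp) lay on unordered sequence. These 5 thus stood beside silent, weak and strongly counted genes alike. The sources used here name no build for these coordinates.

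The C subgenome held more of the silent genes than of all genes. Of 56055 C genes 8649 (15.4%) were silent, and of 44452 A genes 4348 (9.78%). The C genes were 65.8% of silent genes and 55.5% of all genes. On placed chromosomes the shares were 14.6% in C and 9.10% in A. No C chromosome overlapped the A chromosomes: the 9 C chromosomes ran from 12.9% (C03) to 17.3% (C02), and the 10 A chromosomes from 7.81% (A06) to 11.3% (A02). The number 02 chromosome was the highest in each subgenome.

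Length and gene spacing differed between the subgenomes as well. Placed C genes had a median length of 1521 bp and 13.0 other genes with a midpoint within 50 kb, and placed A genes 1704 bp and 17.0. The C share was the higher in each of the 6 length classes, for instance 21.5% against 14.7% at 600 to under 1000 bp. With placed A genes reweighted to the length mix of the C genes the A share was 10.8%, with their spacing mix 10.6%, and with both together 12.4%, still below the 14.6% of C. Of 32 classes of length and spacing with at least 100 genes of each subgenome, C was above A in 29.

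The same order between subgenomes stood among the genes that the rule left out. Among the genes with a count somewhere, a larger share of C than of A genes was at 0 in 23 of 23 libraries, by 1.57 to 5.47 percentage points (median 4.06). These 23 values share the same genes. The C share of the A and C genes with a count fell with the class of counts, from 62.4% at 1 or 2 counts to 59.0% at 11 to 100 and 51.1% over 10000, and was 66.5% for the silent genes themselves.

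**Figure D3:**
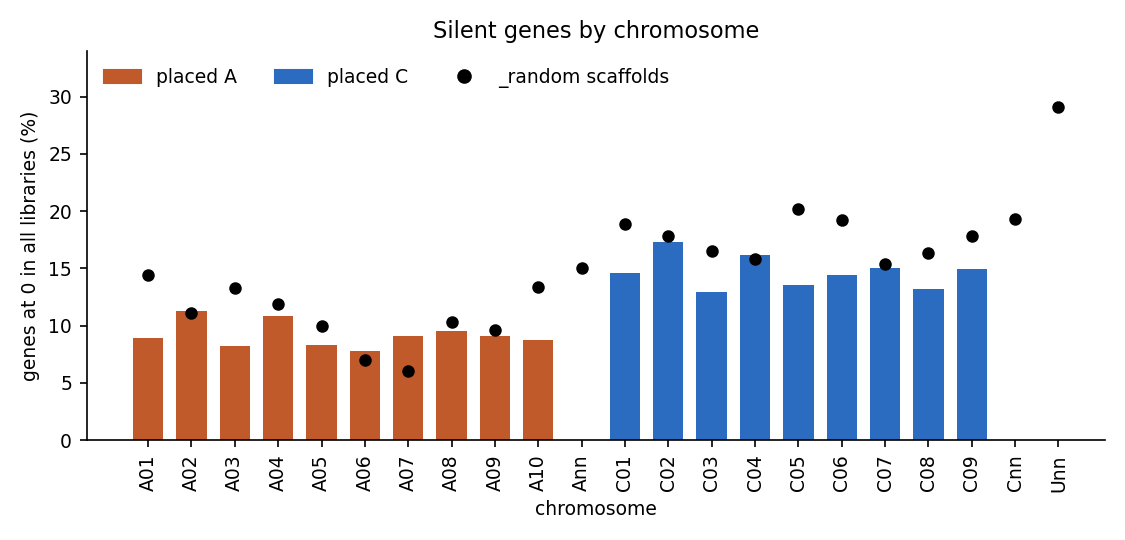
Share of genes at 0 in all libraries (y axis, %) for each placed chromosome (bars; A orange, C blue) and for its _random scaffolds (points). All 9 C bars (12.9% to 17.3%) lie above all 10 A bars (7.81% to 11.3%), and Unn_random is the highest point at 29.1%.

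Unordered sequence held silent genes at a higher rate than placed chromosomes. Of 20113 genes on _random scaffolds 3371 (16.8%) were silent, and of 80927 placed genes 9781 (12.1%). The highest share was on Unn_random, 155 of 533 genes (29.1%), followed among the large collections by Cnn_random (1517 of 7877, 19.3%) and Ann_random (631 of 4202, 15.0%). The scaffolds tied to a numbered chromosome stood above that chromosome in 15 of 19 cases, 7 of 10 in A and 8 of 9 in C. The exceptions were A02, A06, A07 and C04, and the widest spread within A was on scaffolds, from 6.01% of 333 genes (A07_random) to 14.4% of 292 (A01_random) outside Ann. Genes on scaffolds were shorter, with a median of 1380 bp against 1605 bp. At the length mix of the scaffold genes, placed genes would be silent at 13.7%, and in each of the 6 length classes the scaffold share was the higher (46.6% against 40.9% under 300 bp, 11.2% against 8.69% at 1000 to under 2000 bp).

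Along placed chromosomes silent genes were commoner where genes were sparse. With 0 to 4 other genes within 50 kb 21.0% of genes were silent, with 10 to 14 13.2% and with 25 or more 7.36%. Median gene length rose from 1487 bp in the sparsest class to 1697 bp with 20 to 24 other genes, and was 1610 bp with 25 or more. The fall in the silent share was present within each length class, for instance from 52.9% to 30.6% under 300 bp and from 9.10% to 1.76% at 2000 to under 4000 bp. The fall was also present in both subgenomes, from 17.5% to 6.61% in A and from 21.7% to 9.30% in C, so at equal spacing C remained the higher.

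**Figure D4:**
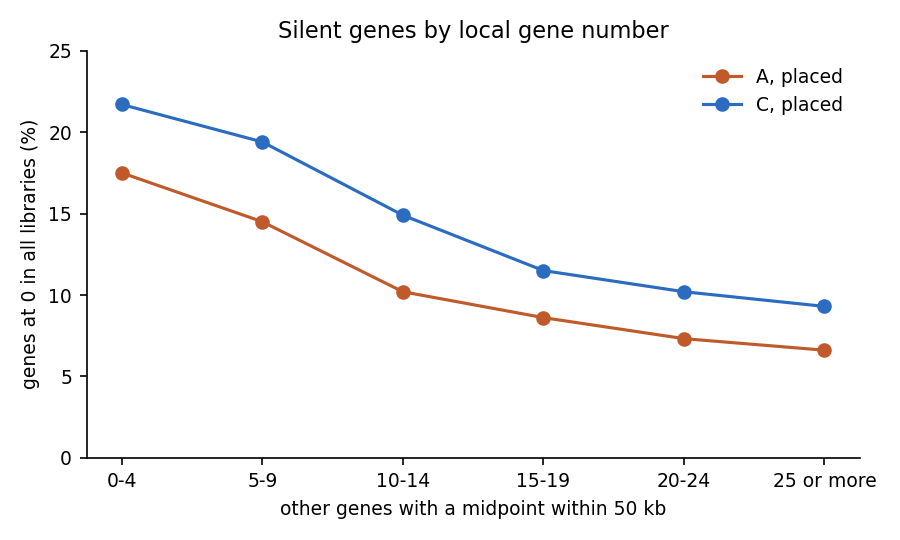
Share of genes at 0 in all libraries (y axis, %) by the number of other genes with a midpoint within 50 kb (x axis), on placed A (orange) and C (blue) chromosomes. Both lines fall from the sparsest to the densest class, from 17.5% to 6.61% in A and from 21.7% to 9.30% in C.

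When each placed chromosome was divided into 20 parts of equal length, up to its last gene, the share of silent genes ran from 1.42% to 45.3% over the 380 parts (median 11.4%). The highest were a part of C03 (39421592 to 42395155) with 39 of 86 genes, a part of C07 (6863738 to 8895099) with 47 of 119 (39.5%), and a part of C02 (30146997 to 32337422) with 39 of 106 (36.8%). All 3 were gene-poor, with medians of 3 to 7 other genes within 50 kb, and 17 of the 20 highest parts lay on C chromosomes. Across parts, the share of silent genes was set beside the number of genes. The Spearman coefficient was -0.65 over 200 A parts, -0.82 over 180 C parts and -0.47 over all 380. Parts differ in length between chromosomes, so across chromosomes the number of genes in a part is not a measure of spacing. Neighbouring parts share a chromosome and its spacing, and the coefficients are given as a description.

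Silent genes stood side by side. A gene that followed a silent gene was itself silent in 29.5% of cases, and one that followed a gene with a count in 10.5%. In C the shares were 32.3% and 12.3%, in A 23.8% and 8.26%. The gap was present in each length class, with 66.7% against 36.4% under 300 bp and 9.67% against 3.34% at 2000 to under 4000 bp. It faded within a few genes, to 20.3% against 11.9% at a distance of 2 genes, 16.3% against 12.5% at 5 and 15.3% against 12.7% at 10, and then stayed near that level, with 15.5% against 12.7% at 100 genes.

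The likeness of neighbours was greatest where they were close. With under 1 kb between neighbours, 46.5% of genes after a silent gene were silent and 6.05% of those after a gene with a count. With 5 to 20 kb between them the shares were 21.5% and 14.1%. Neighbouring silent pairs lay on the same strand in 69.3% of 3885 cases, against 53.1% of the 78590 pairs with counts in both genes, and their median gap was 1459 bp against 1879 bp. Pairs with 1 silent gene were the widest apart (4013 bp). No gene spans overlap in the table, and the smallest gap between neighbours was 38 bp.

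**Figure D5:**
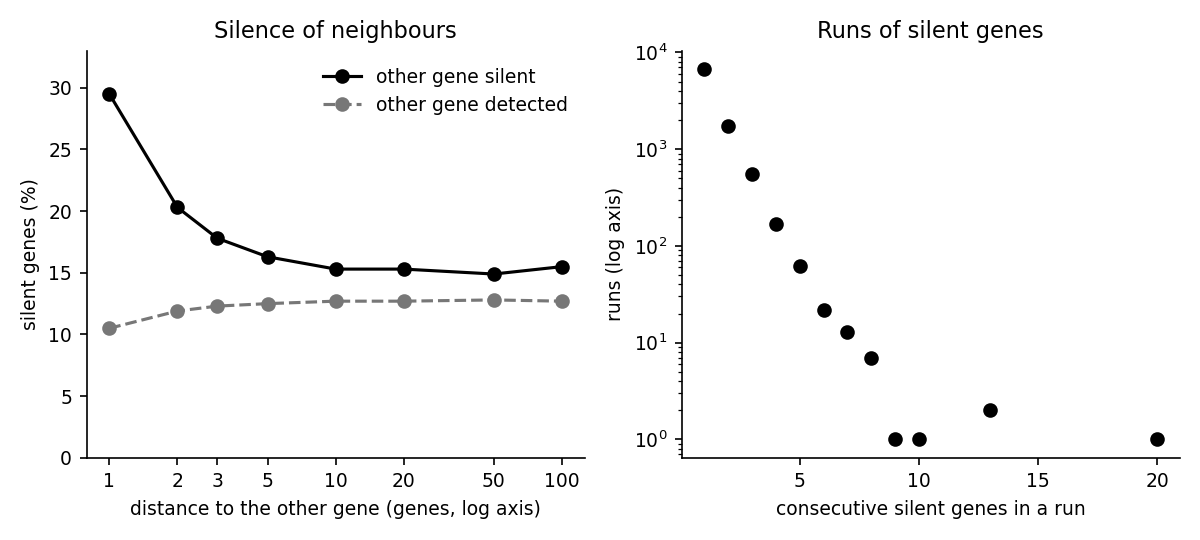
Left, share of genes that are silent (y axis, %) when the gene 1 to 100 places before it (x axis, log scale) is silent (solid) or has counts (dashed). Right, number of runs (y axis, log scale) by the number of consecutive silent genes in them. The gap on the left narrows from 29.5% against 10.5% at 1 place to 15.3% against 12.7% at 10, and 1 run of 20 genes stands apart on the right.

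The 13152 silent genes formed 9267 runs of consecutive silent genes on a chromosome or scaffold collection. Of these, 6710 were single genes, so 51.0% of silent genes stood alone and 6442 (49.0%) were in 2557 runs of 2 or more. Runs of 2 numbered 1724, runs of 3 556 and runs of 4 168. In 109 runs of 5 or more genes were 654 silent genes (4.97%). Of these 109 runs, 85 lay on C sequence (78.0%), 21 on A and 3 on Unn_random. The C genes were 65.8% of silent genes and 55.5% of all genes. On _random scaffolds lay 31 of the 109 runs, where 25.6% of silent genes and 19.9% of all genes were. The order of scaffolds within a _random collection is arbitrary, so a run there may join unlinked sequence. On placed chromosomes alone 47.5% of silent genes were in runs of 2 or more.

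The longest run held 20 genes on C02 (24209324 to 24531035, 322 kb), from BnaC02g26530D to BnaC02g26720D, all on the plus strand, and 18 of them under 300 bp. Its core was an array of 16 genes, BnaC02g26540D to BnaC02g26690D (24215204 to 24227659), each annotated at exactly 231 bp with starts exactly 815 bp apart. The genes on either side of the run had 299 and 5 counts over all libraries. A run of 13 genes on C07 (11025025 to 11049663, 24.6 kb; BnaC07g06780D to BnaC07g06900D) was the most compact of the 5 longest, and lay between genes with 7722 and 239 counts. The other run of 13, on C05 (24060298 to 24253229, 193 kb; BnaC05g27260D to BnaC05g27380D), lay between genes with 212 and 3183 counts. A run of 10 on Cnn_random (1166874 to 1221869; BnaCnng00890D to BnaCnng00980D) ended beside BnaCnng00990D, which had 57715 counts. A run of 9 on Unn_random (2776646 to 2997862; BnaUnng02080D to BnaUnng02160D) had 2 and 10 counts in the genes at its ends. Strands were mixed in each of these runs but the one on C02.

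Arrays like that on C02 were looked for across the table, as a choice made after the C02 run was seen. Consecutive genes of identical length on the same strand formed 17 arrays of 3 or more, with 75 genes, of which 56 (74.7%) were silent. In 8 arrays, with 46 genes, every gene was silent, in 5 some were and in 4 none was. Nearly all of these genes were short: 66 were under 600 bp, and 54 of those (81.8%) were silent, against 35.6% of all genes under 600 bp. Without the C02 array that prompted the search it was 38 of 50 (76.0%). The sequences of the array genes were not compared. How reads that match several near-identical genes were assigned is not given, and its part in these zeros was not tested. Next in size were 6 genes of 348 bp on C09 (23274802 to 23296464, from BnaC09g24910D), 6 of 552 bp on C07 (37270718 to 37280798, from BnaC07g34570D; starts 1905 to 1909 bp apart) and 5 of 348 bp on A09 (15497992 to 15517366, from BnaA09g22900D), all silent. The 348 bp arrays on A09 and C09 shared their gene length. So did arrays of 3 genes of 498 bp on A05 (19594337 to 19599129) and C05 (39022319 to 39027119), with starts 1795 to 2500 and 1811 to 2492 bp apart; all 3 on C05 and 2 of 3 on A05 were silent, and no gene of the A05 array exceeded 2 counts. Arrays with counts existed too, such as 3 genes of 1491 bp on A09 (8749024 to 8768990), 1 of which reached 71957 counts. Among the 156 pairs of neighbours of identical length and strand outside these arrays, both genes were silent in 55 (35.3%), neither in 82 and 1 in 19.

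Few silent genes carry an ID that RefSeq also uses as a symbol. RefSeq's gene table for the Da-Ae assembly held 3347 of the IDs as symbols, regardless of case; 122 of these (3.65%) were silent, against 13.3% of the other IDs. At the length mix of the matched IDs, those without a match would be silent at 15.4%. Of the 122, 121 were protein-coding in that table and 1 was of the class misc_RNA, and their median length was 554 bp. The 3 longest were BnaA09g20030D (A09, 13026624 to 13030239; 3616 bp), BnaA06g27990D (A06, 19242932 to 19245242; 2311 bp) and BnaC02g48500D (C02_random, 4748286 to 4750168; 1883 bp), all protein-coding; the table gives no description of what they encode. No sequence is printed because no genome of the table's build was used here.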

How the data were processed

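The authors deposited 1 table of raw counts per gene, whole numbers not scaled for depth, with each gene's chromosome, start, end, strand and length. HISAT2 and DESeq2 are named, without versions, per the submitters' processing notes. The sources used here do not give the counting tool, build, annotation or strand setting. All 23 per-sample columns were used. Genes were sorted by chromosome, start and end; a gene with 0 counts in all columns was called silent, and a run is a set of consecutive silent genes. Shares, medians and thinning were computed with Python 3.11.15, pandas 2.3.3 and numpy 2.4.6. Thinning gives the expected number of genes at 0 when a library's counts are drawn without replacement down to the smallest total. Group means were compared with permutation tests over libraries (scipy 1.17.1) and Benjamini-Hochberg adjustment over 3 comparisons, with 0.05 as the threshold. Reweighted shares apply one set's share per class of length (limits 300, 600, 1000, 2000 and 4000 bp) and spacing to the other set's mix. The finding of runs was checked on planted runs, and thinning against random draws from 1 library. The rule was checked on simulated counts with some genes set to 0, an outcome fixed in advance. The other steps were not checked in this way. The members, classes and lists were chosen with earlier results of these data known. Named genes are the 5 longest silent genes and the 3 longest with a RefSeq match, the 5 longest runs and the 3 parts, of 20 per chromosome, with the highest share of silent genes; a planned grouping by gene description could not be filled because the tables hold none. In 22 pairs of replicates, chi-square per gene was 2.45 to 122 against the sampling noise of single counts, and each library was counted once. Where both mates were counted, noise is larger, so the pairs with the lowest values may differ by little more than noise.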

Additional observations from a re-analysis of the deposited data

How the results depend on the processing

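The number of silent genes was 14407 with at most 1 count in all, 16643 with at most 2 and 22095 with at most 10. It was 13164 from libraries of 2 M counts or more, 15593 without the deepest library, 23103 from shoots, 15786 from roots, 18499 from controls and 14482 from PA23 libraries. Their median length (636 bp) was 672 and 748 bp with at most 2 and 10 counts, 669 bp without the deepest library, and 782, 678, 714 and 653 bp from shoots, roots, controls and PA23 libraries. With at most 2 counts the silent shares were 12.7% of A, 19.3% of C, 21.0% of scaffold and 15.3% of placed genes, and 54.6% of silent genes were in runs. Without the deepest library these were 11.8%, 18.1%, 19.5%, 14.4% and 52.5%. On placed chromosomes alone they were 9.10% of A and 14.6% of C genes, with 47.5% in runs. C stayed above A and scaffolds above placed chromosomes in each of these. Counting each array as 1 gene, chosen after the data were seen, gave 48.8% in runs. No genes overlap, so leaving out overlapping genes changed nothing.

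Leaving out 1 library at a time gave 13152 to 15593 silent genes, a median of 636 to 669 bp, 9.78% to 11.8% of A, 15.4% to 18.1% of C, 16.8% to 19.5% of scaffold and 12.1% to 14.4% of placed genes, and 49.0% to 52.5% in runs, with the highest value each time without the deepest library. The shoot-minus-root difference in thinned genes at 0 was 5904 to 7055. It was 5996 with counts halved and 6012 among libraries of 2 M counts or more, past the threshold in each. For PA23 minus control it was 269 to 1298 in shoots and -1535 to 564 in roots, not past the threshold. Within the second sequencing run, as read from the library names and tried after the data were seen, the root difference was 739 (5 PA23 against 2 control libraries, exact permutation p = 0.571), opposite in sign to the -1048 over all; the cause was not tested. The correlation of deviations between same-numbered libraries was above 0.1 in 1 of 6 shoot, 1 of 5 root and 1 of 11 shoot-root pairs. The 6 libraries under 2 M counts formed 3 same-numbered pairs of PA23 and control. These values do not settle whether the numbers mark a shared batch. With a replicate block the PA23 difference in shoots was the same 812 genes but passed the threshold (exact permutation over 6 pairs, p = 0.0312, adjusted p = 0.0469). PA23 was higher in 6 of 6 same-numbered pairs, and this p is the smallest that 6 pairs can give. The block gave 6004 for shoot minus root and -966 for roots, with no change of call. The bracketed library names in the labels do not always match these numbers. Their last digit differs from the replicate number for shoot PA23 7 d replicate 1 and root control 24 h replicate 2. Their first digit sets shoot PA23 7 d replicate 1 and root PA23 24 h replicate 1, the deepest library, apart from all others. The matching by number is thus uncertain. Among the 2 or 3 libraries of the partner group, a library correlated best with its own number in 10 of 22 shoot-root, 6 of 12 shoot and 2 of 10 root cases.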

Other observations

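Some genes missed the silent set through a single library in which they were well covered. Of the 4770 genes with counts in exactly 1 library, 3276 (68.7%) had 1 or 2 counts, but 19 had 100 or more, and all 19 were in root PA23 24 h replicate 1. The cut of 100 is on raw counts, which is reached at a lower CPM in this library (721 M counts) than at the median total of 45.8 M. BnaA03g44240D (A03, 22406143 to 22408881) had 6377 counts there (8.84 CPM) and 0 in the other 22 libraries, although the same CPM would give 221 and 668 counts in the other 2 libraries of its group and 1146 in the second deepest library. BnaA06g03170D (A06, 1919606 to 1920187) had 1511 counts, BnaC01g31930D (C01, 31056655 to 31057263) 1121, BnaA02g09240D (A02, 4568118 to 4568857) 805 and BnaC09g01030D (C09, 554561 to 557337) 469, each with 0 elsewhere. At the same CPM, 16 to 158 counts would fall in the other libraries of the group. These 5 were chosen for their counts after these were seen. By the rule on CPM, BnaA02g13650D stood next in roots with 4 counts (3.99 CPM) in root PA23 7 d replicate 3. In shoots BnaC08g10740D had 4 counts (3.64 CPM) in PA23 24 h replicate 1 and BnaA08g09930D 2 counts (2.26 CPM) in PA23 7 d replicate 2, all in libraries under 2 M counts.

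Silent genes had lengths divisible by 3 more often (54.5%) than genes with a count (41.3%). A gene model made of a single coding exon without untranslated ends has such a length. Within length classes the shares were close, for instance 79.5% against 77.0% under 300 bp, 58.0% against 59.5% at 300 to under 600 bp and 46.4% against 46.1% at 600 to under 1000 bp; the widest gaps were 43.1% against 38.8% at 1000 to under 2000 bp and 28.9% against 33.5% at 4000 bp or more. Strand showed no such gap, with 49.7% of silent genes and 49.6% of the others on the plus strand.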
